A study of Homo sapiens with 13 samples.

Results

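The tubulin genes encode the protein that nocodazole binds, and their chromatin was compared between G1 and M-phase of T98G cells, an established human glioblastoma line. The set held 10 genes: the α-tubulins TUBA1A, TUBA1B and TUBA1C, the β-tubulins TUBB, TUBB2A, TUBB2B, TUBB3, TUBB4B and TUBB6, and the γ-tubulin TUBG1. Of 129347 ATAC-seq peaks in hg19, those that overlapped the gene body of one of these genes or the 10 kb on either side of it were taken, which gave 30 peaks around 9 of the 10 genes. No peak lay in the window of TUBB. In all, 10 of the 30 peaks overlapped an annotated transcription start site (TSS) of a tubulin gene and the other 20 are called flanking peaks. A single peak lay in the windows of 2 genes, TUBA1A and TUBA1C, and is counted once.

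Each phase was represented by 3 ATAC-seq libraries. The assay marks open chromatin by letting a transposase insert adapters into accessible DNA. G1 cells had been starved of serum for 72 h. M-phase cells had been starved for 48 h, released for 36 h into medium with nocodazole and collected by shake-off of the rounded mitotic cells. Serum release and the drug changed together with the phase, and by the labels the M-phase replicates had NextSeq runs beside HiSeq runs whereas G1 had HiSeq runs alone, so that none of these can be told apart from the phase. All libraries came from this single cell line, and the labels do not say that replicates were separate cultures, so that p-values measure the spread between these libraries only. The deposited value of a peak is its read count scaled by the authors to the smallest library, here called the scaled count. By the step between low values, the G1 libraries held 4333935 to 5365024 reads in peaks and the M-phase libraries 12470564 to 14202790. Each G1 value therefore rests on fewer reads than an M-phase value of the same size. In bulk libraries, fewer cells with an open site cannot be told apart from less opening per cell. Of 6 markers of glial or mesenchymal glioma cells, 3 had a promoter peak, VIM, CD44 and, at a mean scaled count of 11.6 in G1, SOX2, whereas NES, GFAP and S100B had none. None of 3 blood markers or 2 endothelial markers had one, and of 2 epithelial markers only EPCAM did.

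Microtubules are polymers of α- and β-tubulin dimers, and γ-tubulin sits in ring complexes that start their growth at centrosomes. In mitosis they build the spindle, and nocodazole binds β-tubulin and keeps dimers from joining the polymer. Cells also limit tubulin by degrading its mRNA during translation when free dimers accumulate, a control that acts on the RNA and not on the promoter. Human cells carry several α- and β-tubulin genes whose proteins are nearly alike and whose promoters and tissue patterns differ.

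The bases just upstream of 5 start sites are shown because these 5 genes span the range of the results: TUBB4B, TUBA1C and TUBA1B had the 3 largest changes at a TSS, TUBB6 missed the threshold and TUBB2B had no peak over its canonical start. Each run is the 200 bases before the canonical TSS in the direction of transcription, from the GRCh37 genome with GENCODE release 44 starts. Capitals mark the letters CCAAT, the core bound by NF-Y, and GGGCGG, the GC box bound by Sp1-family factors, on either strand (ATTGG and CCGCCC on the other strand), overlapping copies included. TUBB4B lies at chr9:140135539-140135738 on the plus strand, TUBA1C at chr12:49658665-49658864 on the plus strand, TUBA1B at chr12:49525179-49525378 on the minus strand, TUBB6 at chr18:12308040-12308239 on the plus strand and TUBB2B at chr6:3227888-3228087 on the minus strand.
TUBB4B: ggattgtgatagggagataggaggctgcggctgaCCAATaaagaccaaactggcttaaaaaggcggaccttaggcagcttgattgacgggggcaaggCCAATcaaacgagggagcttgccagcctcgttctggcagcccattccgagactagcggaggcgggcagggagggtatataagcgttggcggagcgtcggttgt
TUBA1C: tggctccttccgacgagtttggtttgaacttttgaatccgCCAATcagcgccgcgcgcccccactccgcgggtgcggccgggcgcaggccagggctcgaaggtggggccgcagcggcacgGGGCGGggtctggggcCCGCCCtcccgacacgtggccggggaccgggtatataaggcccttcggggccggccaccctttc
TUBA1B: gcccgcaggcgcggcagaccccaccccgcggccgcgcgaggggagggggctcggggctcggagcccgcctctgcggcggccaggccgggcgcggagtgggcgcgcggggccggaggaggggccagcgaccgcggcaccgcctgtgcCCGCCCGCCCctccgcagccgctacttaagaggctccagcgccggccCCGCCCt
TUBB6: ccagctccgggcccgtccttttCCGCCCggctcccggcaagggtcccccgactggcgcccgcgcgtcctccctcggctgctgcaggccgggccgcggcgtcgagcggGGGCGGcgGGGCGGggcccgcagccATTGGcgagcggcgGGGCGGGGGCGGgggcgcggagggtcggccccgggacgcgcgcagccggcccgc
TUBB2B: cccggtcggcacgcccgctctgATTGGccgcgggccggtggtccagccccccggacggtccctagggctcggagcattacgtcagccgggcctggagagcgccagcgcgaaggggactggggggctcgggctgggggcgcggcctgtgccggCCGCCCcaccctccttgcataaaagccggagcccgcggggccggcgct

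The letters CCAAT stood in this window for 8 of the 10 tubulin genes, all but TUBA1B and TUBB2A, and in 30.4% of 19855 protein-coding promoters. Among the 13343 promoters of genes with a peak over any annotated start, canonical or not, the share was 31.1%. TUBB4B and TUBA1A each had 2 copies and no GC box. The GC box letters stood upstream of the other 8 genes and in 56.5% of all promoters and 68.8% of those 13343, with 5 copies each at TUBB2A and TUBB6. TUBA1C had 2 copies of TTTGAA, the letters of the cell cycle genes homology region, which 7.57% of promoters held. TUBB2A was the one tubulin gene with TATAAA and the one with TGACGTCA, held by 7.74% and 2.29% of promoters, and TGACTCA stood upstream of none of the 10 genes and of 2.49% of promoters. A match of letters is a description of the window, and binding was not measured here.

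At the start sites, 8 of 10 tubulin peaks rose in M-phase and 0 fell at an adjusted p under 0.05. Changes are the difference between phases of log2(scaled count + 8), tested with limma over 73121 peaks. Of all 15500 promoter peaks tested, 43.2% rose and 5.94% fell, so rises were common at promoters in general. By an unadjusted p under 0.05 limma gave 9 rises and 0 falls among the 10. With edgeR on recovered reads there were 8 rises and 0 falls. No background share is given for either count, here or for the sets below, so these counts are descriptions only. In 9 of the 10 peaks every M-phase library lay above every G1 library, which held for 48.5% of all promoter peaks tested. The median log2 change of the 10 was 1.10, with a range from 0.16 to 1.43, beside a median of 0.39 over all promoter peaks and 0.02 over all peaks tested.

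**Figure D1:**
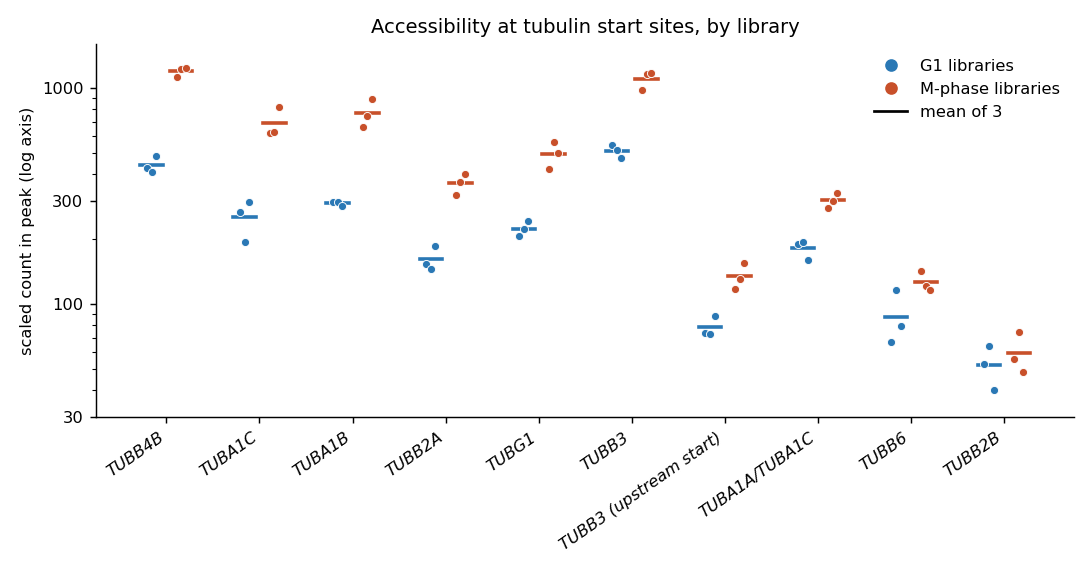
Scaled counts of the 10 tubulin TSS peaks in each library, on a log axis, with G1 libraries in blue, M-phase libraries in orange and a bar at the mean of 3 libraries. The M-phase points lie above the G1 points at 9 peaks, by the least at TUBB6, and overlap them at TUBB2B.

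TUBB4B, a broadly expressed β-tubulin, had the largest log2 change of the start-site peaks and, per kb of peak, the highest mean scaled count in both phases. Its peak, chr9:140134773-140136734, covers the start and the first part of the gene. The scaled counts were 426.5, 407.8 and 483.0 in G1 replicates 1 to 3, and 1120.1, 1229.1 and 1234.2 in M-phase replicates 1 to 3. The groups stood far apart, with a G1 mean of 439.1 ± 39.2 (SD, n = 3) and an M-phase mean of 1194 ± 64.5 (SD, n = 3). The log2 change was 1.43 with a standard error of 0.15 (limma, adjusted p = 8.57e-13).

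TUBA1B and TUBA1C are the α-tubulin genes expressed in most cell types. The TUBA1C start-site peak, chr12:49658229-49660379, had scaled counts of 268.4, 194.5 and 298.0 in G1 and 622.0, 627.5 and 819.5 in M-phase. The lowest M-phase library was above the highest G1 library, and the log2 change was 1.42 with a standard error of 0.17 (limma, adjusted p = 7.07e-11). In this peak, 16.1% of the 31-base words occur at more than 3 places of GRCh37, and the authors' mapping kept reads with up to 3 locations. How the longer reads of this peak mapped was not tested. The TUBA1B peak, chr12:49523646-49525826, had 296.3, 296.1 and 286.0 in G1, close together, and 663.7, 745.8 and 893.1 in M-phase. Its log2 change was 1.36 with a standard error of 0.16 (limma, adjusted p = 7.65e-11). The same peak covers the start of the antisense gene TUBA1B-AS1, and reads of both starts cannot be separated.

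TUBA1A, the α-tubulin best known from developing neurons, changed less. Its peak, chr12:49581737-49583122, also covers the most upstream annotated start of TUBA1C, which lies far ahead of the canonical one. The scaled counts were 190.9, 194.5 and 161.0 in G1 and 278.9, 300.8 and 326.2 in M-phase, again without overlap. The log2 change was 0.71 with a standard error of 0.18 (limma, adjusted p = 0.00136), and this call was lost when the libraries were normalized by a trended loess fit on abundance, which gave 0.15 (adjusted p = 0.494).

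TUBB2A and TUBB2B are near-identical β-tubulins known for their high levels in brain, and they lie close to each other on chromosome 6. The TUBB2A peak, chr6:3156626-3158225, had 153.1, 146.1 and 185.0 in G1 and 320.9, 368.8 and 401.3 in M-phase. It rose by a log2 change of 1.13 with a standard error of 0.18 (limma, adjusted p = 3.47e-07). In this peak 81.5% of the 31-base words occur once in the genome and 0.0% at more than 3 places. How its reads mapped was not tested. No peak overlapped the canonical TSS of TUBB2B at position 3227887 of chromosome 6. The peak counted for this gene, chr6:3231199-3232207, lies at the start of an upstream transcript not annotated as protein-coding. With starts of protein-coding transcripts alone it counts as flanking. Then 8 of 9 TSS peaks and 3 of 13 flanking peaks were called higher, with median log2 changes of 1.11 and 0.19. The TUBB2B peak also covers a start of PSMG4, a proteasome assembly factor. It had 52.7, 64.1 and 40 in G1 and 55.6, 74.2 and 48.6 in M-phase, with the groups overlapping, and a log2 change of 0.16 with a standard error of 0.24 (limma, adjusted p = 0.671).

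TUBB3, a β-tubulin used as a marker of neurons, had 2 peaks at annotated starts. The larger, chr16:89988902-89991347, covers the canonical TSS and had 544.8, 519.5 and 476.0 in G1 and 979.6, 1156.2 and 1172.6 in M-phase. The M-phase libraries were all well above G1, with a log2 change of 1.09 and a standard error of 0.15 (limma, adjusted p = 8.1e-09). Trended loess normalization removed this call and gave 0.06 (adjusted p = 0.693). The smaller peak, chr16:89988173-89988507, lies at an upstream start and had 73.6, 72.7 and 88.0 in G1 and 117.8, 131.4 and 154.5 in M-phase. Its log2 change was 0.72 with a standard error of 0.21 (limma, adjusted p = 0.00521), a call lost when every library was given the same total in peaks (0.40) and without M-phase replicate 3 (0.63).

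TUBB6, a further β-tubulin, did not pass the threshold. Its peak, chr18:12307735-12309065, had 66.6, 116.4 and 79 in G1 and 142.1, 122.0 and 116.9 in M-phase, so that the lowest M-phase library was barely above G1 replicate 2. The log2 change was 0.53 with a standard error of 0.21 (limma, adjusted p = 0.0521). Without G1 replicate 2 it was 0.74 (limma, adjusted p = 0.00981), and it also passed the threshold with scaling by a trimmed mean of M values (TMM), with a filter of at least 10 in every library and with the replicate number as a block. It missed the threshold in the other alternatives, with 0.37 without G1 replicate 1 (limma, adjusted p = 0.279), 0.45 without M-phase replicate 1 (0.199), 0.33 under trended loess (0.214) and 0.20 with the same total in every library (0.465).

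TUBG1 encodes the γ-tubulin of the nucleating ring complexes, and its peak, chr17:40760845-40762587, is shared with the divergent start of RETREG3, a gene of the endoplasmic reticulum. The scaled counts were 205.8, 222.7 and 242.0 in G1 and 423.5, 562.4 and 500.9 in M-phase. The groups did not overlap, and the log2 change was 1.11 with a standard error of 0.17 (limma, adjusted p = 1.49e-07). Of the 31-base words in this peak, 78% occur once in the genome, the lowest share among the 10 start-site peaks.

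Divided by peak width, the main start-site peaks of the 9 genes can be ordered. TUBB2B enters by the peak at its upstream start, shared with PSMG4, and not by its canonical TSS. In G1 the mean scaled count per kb was 224 at TUBB4B and 210 at TUBB3, whose libraries overlapped. These were followed by TUBA1B at 134, TUBA1A at 131, TUBG1 at 128, TUBA1C at 118 and TUBB2A at 101, each overlapping the next in its libraries, and then TUBB6 at 65.6 and TUBB2B at 51.8, which overlapped each other. The steps from TUBB3 to TUBA1B and from TUBB2A to TUBB6 were the ones between neighbours without overlap. In M-phase the order was TUBB4B at 609, TUBB3 at 451, TUBA1B at 352, TUBA1C at 321, TUBG1 at 284, TUBB2A at 227, TUBA1A at 218, TUBB6 at 95.4 and TUBB2B at 58.9 scaled counts per kb. There TUBB4B stood apart from TUBB3, TUBA1A from TUBB6 and TUBB6 from TUBB2B, and other neighbours overlapped. TUBA1A ranked 4 of 9 in G1 and 7 of 9 in M-phase.

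Beside the TSS peaks, the flanking peaks were mostly weak. Their mean scaled count over the 6 libraries ran from 3.167 to 139.0, 14 of the 20 were under 50, and 8, with means of 3.167 to 8.483, were too low to be tested. Of the 12 tested, 3 rose and 0 fell (limma), beside 6.51% risen and 15% fallen among the 57621 peaks tested outside promoters. The 2 sets were not matched in level or width. The 12 had a median mean scaled count of 49.5 and a median width of 860 bp, against 18.9 and 394 bp. All 3 that rose had means of at least 50, and how level bears on these shares was not tested. By an unadjusted p under 0.05 limma gave 3 rises and 0 falls among the 12, and so did edgeR, again without a background share. Their log2 changes ran from -0.47 to 1.28 around a median of 0.28, against a median of -0.05 over all peaks tested outside promoters. The median of 0.28 became 0.15 without G1 replicate 3 and 0.17 without G1 replicate 1. In 4 of the 12 every M-phase library was above every G1 library, which held for 12% of peaks outside promoters, and in 1 every M-phase library was below, which held for 21.3%. One of the 12 lies at the start of DEF8 and is a promoter peak of that gene.

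**Figure D2:**
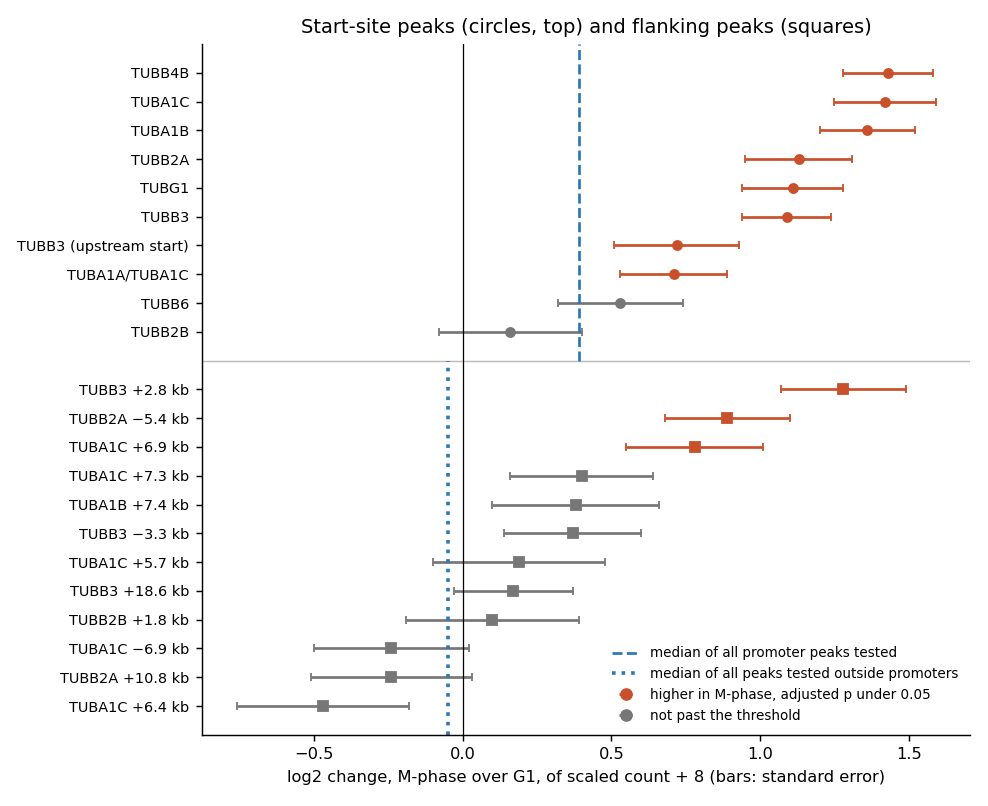
Log2 change between the phases, with its standard error, for the 10 TSS peaks (circles) and the 12 tested flanking peaks (squares, named by the distance of the peak centre from the nearest start of the tubulin gene). The dashed line is the median of all promoter peaks tested, 0.39, and the dotted line that of peaks outside promoters, -0.05. The 8 called TSS peaks lie right of the dashed line, and 3 flanking peaks are called higher.

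The 3 flanking peaks that rose lay at 3 different genes. A peak in an intron of TUBB3, chr16:89992331-89992853, with its centre 2.8 kb downstream of the nearest start, had 71.6, 55.5 and 55.0 in G1 and 131.4, 188.7 and 159.3 in M-phase. Its log2 change, 1.28 with a standard error of 0.21 (limma, adjusted p = 9.87e-07), was above that of the TUBB3 start itself. A peak 5.4 kb upstream of the TUBB2A start, chr6:3162818-3163586, lies in no annotated gene and had 96.4, 64.8 and 125.0 in G1 and 187.4, 152.9 and 194.9 in M-phase. The log2 change there was 0.89 with a standard error of 0.21 (limma, adjusted p = 4.64e-04). The third, chr12:49628159-49629343, lies in a TUBA1C intron and had 40.8, 54.7 and 71.0 in G1 and 86.1, 90.2 and 123.2 in M-phase. Its libraries did not overlap either, with a log2 change of 0.78 and a standard error of 0.23 (limma, adjusted p = 0.00596), but the call was lost with equal totals in peaks (0.46), without G1 replicate 1 (0.60) and without M-phase replicate 3 (0.63). In this peak 21.4% of the 31-base words occur at more than 3 places of GRCh37, and how its reads mapped was not tested.

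The other flanking peaks named here, the strongest of their windows, did not pass the threshold. The DEF8 promoter peak, chr16:90014407-90016077, 18.6 kb downstream of a TUBB3 start, had 132.2, 125.0 and 134.0 in G1 and 138.4, 156.2 and 148.2 in M-phase. Its log2 change was 0.17 with a standard error of 0.20 (limma, adjusted p = 0.583), beside 1.09 at the main TUBB3 start in the same window. At the DEF8 peak 14.1% of the 31-base words occur at more than 3 places of GRCh37. Downstream of TUBA1B, chr12:49516008-49516934 had 29.8, 34.4 and 13 in G1 and 42.0, 24.7 and 37.1 in M-phase, and its log2 change of 0.38 did not pass (limma, adjusted p = 0.343) and moved to 0.07 without G1 replicate 3 and 0.57 without G1 replicate 2. Here 38.9% of the 31-base words occur at more than 3 places and 60.2% occur once, and how the reads mapped was not tested. An exonic peak of TUBB2B, chr6:3225435-3225977, had 16.9, 33.6 and 15 in G1 and 26.0, 21.0 and 21.7 in M-phase, and its groups overlapped (log2 change 0.10, limma, adjusted p = 0.843). Of the 31-base words in that peak 0.0% occur once in the genome, so its reads could also come from copies of the sequence elsewhere. The strongest flanking peaks of TUBG1, chr17:40776258-40776379, and TUBB6, chr18:12327857-12328100, had mean scaled counts of 5.433 and 8.483 and were not tested. TUBA1A and TUBB4B had no flanking peak.

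**Figure D3:**
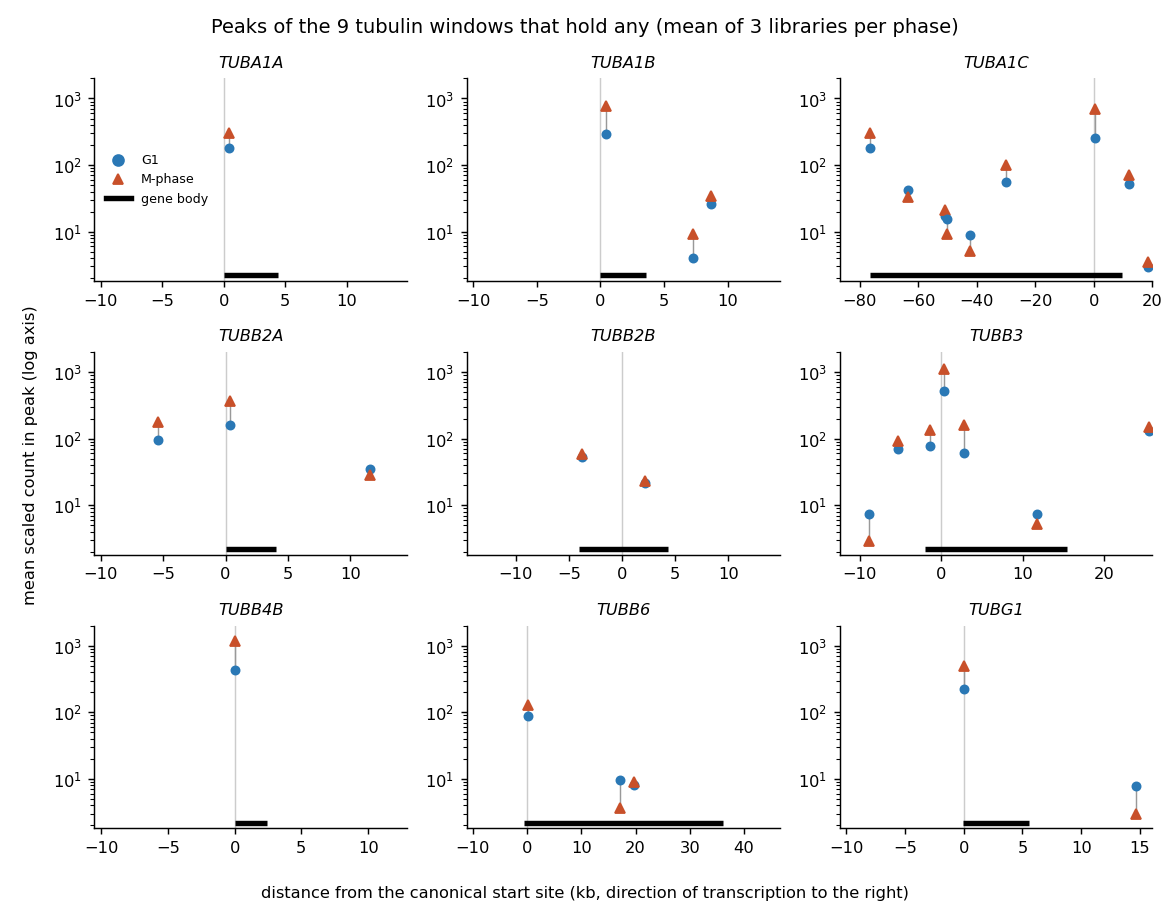
Mean scaled count (log axis) of each peak against its distance from the canonical start site in kb, for the 9 tubulin windows that hold peaks, with G1 as circles, M-phase as triangles, and the gene body as a black bar. In 8 panels the strongest peak lies at the start site and the flanking peaks lie below it, whereas the TUBB2B panel has no peak at its canonical start.

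The 3 flanking peaks that rose were rich in CpG. Their observed over expected CpG ratios were 0.71 in the TUBB3 intron, 0.82 upstream of TUBB2A and 0.81 in the TUBA1C intron, with a GC content of 75.3%, 71.0% and 54.8%. Over the 12 flanking peaks tested the median ratio was 0.56 and the median GC content 59.2%, and over all 20 they were 0.39 and 57.0%. At the 10 TSS peaks the medians were 0.71 and 65.2%, close to the 0.74 and 62.7% of all promoter peaks tested. Ratios as high were also found at peaks that did not pass the threshold, 0.87 at the DEF8 promoter, 0.92 at the TUBB6 start and 0.76 at a flanking peak downstream of TUBB2A, chr6:3145465-3147017, whose log2 change was -0.24.

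Across promoters the change rose with the level of the peak. The tubulin start-site peaks spanned much of that range, with 7 of 10 above the promoter median of 150 in mean scaled count, and TUBB2B at 55.87, the upstream TUBB3 start at 106.3 and TUBB6 at 107.2 below it. When the 15500 promoter peaks tested were split by mean scaled count into 10 level bins of 1550 peaks, the median log2 change was -0.06 in the lowest bin and 0.95 in the highest. The start-site peaks of TUBB4B, TUBA1B, TUBA1C and TUBB3 fell in the highest bin, where the middle 50% of peaks ran from 0.62 to 1.27. TUBB4B, TUBA1C and TUBA1B lay above that range at 1.43, 1.42 and 1.36, and the main TUBB3 peak lay inside it at 1.09. The mean scaled counts of this bin ran from 421.8 to 2472, with a median of 545. TUBB4B at 816.8 and the main TUBB3 peak at 808.1 stood well above that median, so the bin does not match their level. All 10 tubulin TSS peaks were above the median of their own bin, and 6 were above its upper quartile: TUBB4B, TUBA1C, TUBA1B, TUBB2A, TUBG1 and the upstream TUBB3 start. TUBA1A, at 0.71, was close to the median of 0.63 in its bin. These positions are given as a description, with no test.

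**Figure D4:**
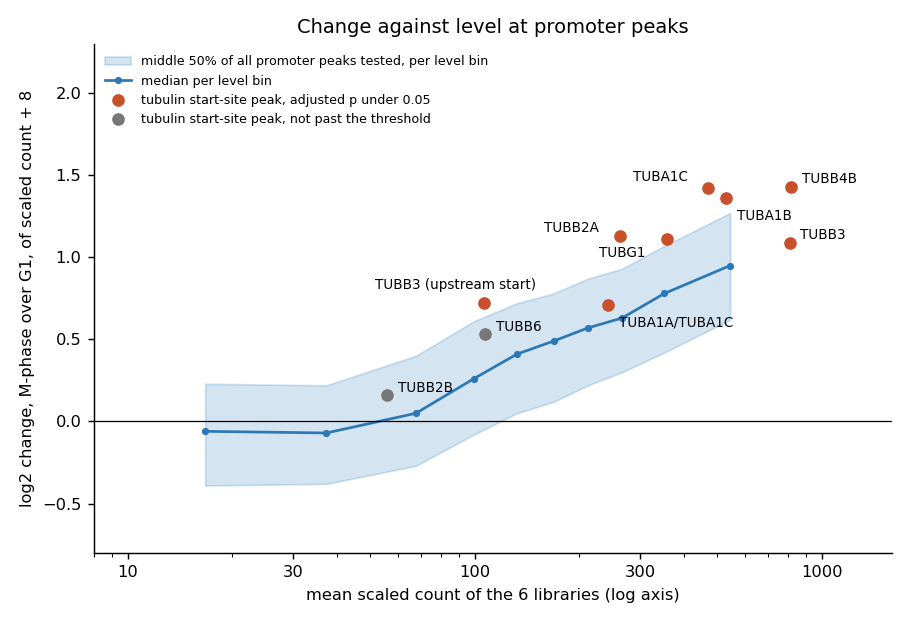
Log2 change between the phases against the mean scaled count of the 6 libraries (log axis) for the 10 tubulin TSS peaks, over the median (line) and the middle 50% (band) of all promoter peaks in 10 bins of level. The band climbs with level, from a median of -0.06 in the lowest bin to 0.95 in the highest, and 6 tubulin peaks lie above the upper quartile of their bin.

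The calls at the start sites depended on how the libraries were scaled. With TMM scaling, 9 of the 10 TSS peaks were called higher, with equal totals in peaks 7, and with trended loess, which removes any trend of change with level, 6. None was called lower under any of these. Equal totals moved the median log2 change of all peaks tested from 0.02 to -0.23, and relative to that median the tubulin TSS peaks had a median of 1.08 as deposited, 1.07 with TMM, 0.99 with equal totals and 0.38 with loess. The share of all promoter peaks called higher was 43.2%, 44.5%, 29.3% and 21.3% in the same order. The share called lower was 5.94%, 7.6%, 17.2% and 17.1%. TUBB4B, TUBA1C, TUBA1B, TUBB2A and TUBG1 were called higher under all 4 scalings, with log2 changes under loess of 0.41 at TUBB4B and TUBG1, 0.51 at TUBA1B, 0.56 at TUBB2A and 0.63 at TUBA1C.

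**Figure D5:**
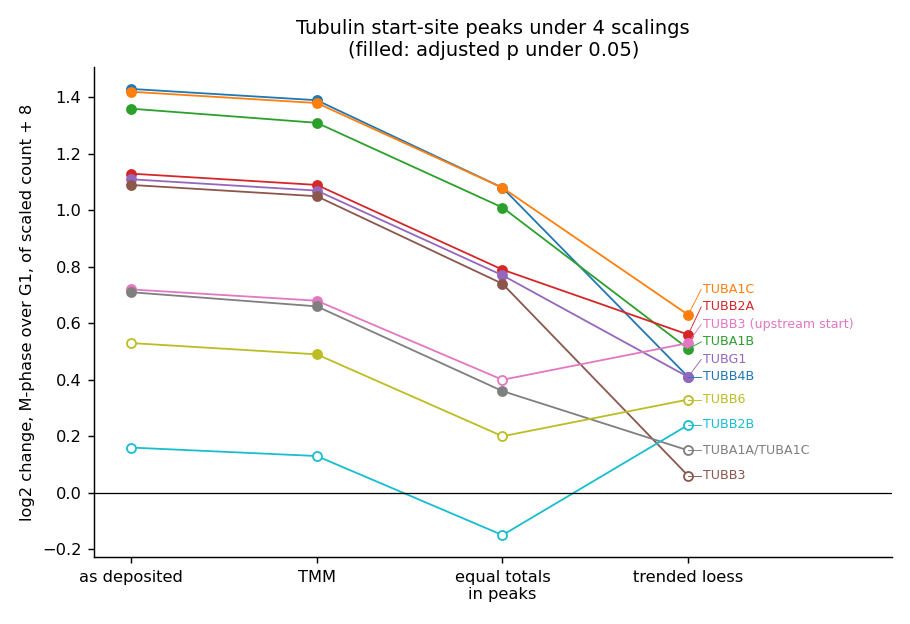
Log2 change between the phases of the 10 tubulin TSS peaks as deposited, with TMM scaling, with equal totals in peaks and with trended loess. Filled points have an adjusted p under 0.05. Under loess TUBB3 falls to 0.06 and TUBA1A to 0.15 and both lose the call, whereas TUBB4B at 0.41 keeps it.

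TUBB, the β-tubulin gene expressed in most cell types, had no peak from which to read a change. The gene spans positions 30685212 to 30693315 of chromosome 6, and the nearest peaks of the table lie 615.2 kb to its left and 545.8 kb to its right. Its neighbours were missing as well, since only 2 of the 76 protein-coding genes within 1 Mb of TUBB had a peak over a start (2.63%), against 606 of 972 (62.3%) on the rest of the chromosome. Within 2 Mb it was 2 of 145 genes (1.38%), against 67.1% on the rest. In the primary assembly of GRCh37 all 31-base words in the 200 bases before the TUBB start occur once, and alternate contigs of hg19 were not analysed here. The absence of peaks therefore says nothing on the state of the TUBB promoter, and where reads of this region went was not tested.

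Around the tubulin genes, 69 genes that make, fold, modify or bind tubulin were read by their strongest promoter peak, and 62 had one. Of the 61 tested, 34 rose, 3 fell and 24 did not pass, with a median log2 change of 0.58 beside 0.39 over all promoter peaks and 0.45 over those of protein-coding genes. Of all promoter peaks tested 43.2% rose and 5.94% fell, and of those of protein-coding genes 47.1% rose and 5.29% fell. These backgrounds hold every promoter peak, a gene's weaker ones included, so they are not matched in level to the strongest peaks read here. Trended loess gave 12 rises and 12 falls in place of the 34 and 3, beside 21.3% risen and 17.1% fallen over all promoter peaks under the same scaling, so the directions below hold for the values as deposited. Several of these peaks are shared with a neighbouring gene, and the values then belong to both starts. This is not repeated at each gene below, as for TBCB with POLR2I, CNOT11 with TBC1D8, SVBP with ERMAP and KIF18A with METTL15.

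Among the 12 other tubulin genes 6 had a promoter peak and 5 were tested, with 3 rises and 0 falls (limma). Over protein-coding promoter peaks tested, 47.1% rose and 5.29% fell. By an unadjusted p under 0.05 limma and by edgeR there were 3 rises and 0 falls, with no background share given for either. TUBA4A, a further α-tubulin, had 231.6, 239.8 and 270.0 in G1 and 558.6, 627.1 and 638.0 in M-phase, all apart, with a log2 change of 1.27 (limma, adjusted p = 1.41e-09). Its peak also covers a start of TUBA4B. TUBE1 and TUBD1, the ε- and δ-tubulins of centrioles, rose by log2 changes of 0.76 and 0.72 (limma, adjusted p = 0.00399 and 9.82e-04), both at starts shared with another gene. TUBG2, the second γ-tubulin gene, had 116.3, 111.7 and 124.0 in G1 and 120.7, 128.1 and 75.1 in M-phase and did not pass (log2 change -0.14, limma, adjusted p = 0.672), and it is named after its values were seen because TUBG1 rose.

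The 9 genes of the γ-tubulin complex, with 2 rises and 1 fall, had a median log2 change of 0.09. Protein-coding promoter peaks tested rose in 47.1% and fell in 5.29%. The unadjusted limma count was 3 rises and 2 falls and that of edgeR 2 and 1, without a background share. TUBGCP2, a core subunit whose start is shared with ZNF511, had 89.5, 112.5 and 118.0 in G1 and 285.1, 291.3 and 294.0 in M-phase. The change was large, at a log2 of 1.39 (limma, adjusted p = 6.25e-09), and TUBGCP6, another subunit, rose by 1.04 (limma, adjusted p = 2.97e-07). TUBGCP5 fell, from 574.6, 626.6 and 581.0 in G1 to 339.9, 342.4 and 460.5 in M-phase, a log2 change of -0.64 (limma, adjusted p = 0.00121). The peak read for it, chr15:22822599-22834157, is 11.6 kb wide, so the value sums far more than the start, whereas promoter peaks had a median width of 1179 bp. MZT2A and MZT2B are near-identical copies, so their values are uncertain.

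Of the 15 genes for tubulin folding, which are the CCT chaperonin that folds new tubulin and the cofactors that join α and β chains into dimers, 8 rose and 0 fell (limma), with a median log2 change of 0.65. Beside this, 47.1% of protein-coding promoter peaks tested rose and 5.29% fell. The unadjusted limma count was 12 rises and 0 falls and that of edgeR 8 and 0, again without a background share. TBCC, ARL2 and TBCB, all of the cofactor pathway, had the largest changes, of 0.91, 0.89 and 0.88 (limma, adjusted p = 9.51e-06, 4.47e-05 and 8.87e-06). TBCC had scaled counts of 305.2, 248.4 and 290.0 in G1 and of 459.3, 586.3 and 559.1 in M-phase, without overlap. Of the 3 genes of tubulin mRNA autoregulation, SCAPER and CNOT11, which bring the deadenylase to the mRNA, rose by 0.82 and 0.62 (limma, adjusted p = 4.58e-04 and 0.00617). TTC5, which recognizes the nascent tubulin chain, did not pass (log2 change 0.19, limma, adjusted p = 0.669) and is named because it is the remaining member.

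Of the 15 genes for tubulin modification, 14 were tested, and 9 rose and 2 fell, with a median log2 change of 0.68. For comparison, 47.1% of protein-coding promoter peaks tested rose and 5.29% fell. Unadjusted limma counts were 10 rises and 2 falls and those of edgeR 9 and 2, without a background share. AGBL5, which trims glutamate from tubulin tails, had the largest change of all lists, from 293.3, 249.2 and 330.0 in G1 to 814.8, 889.2 and 932.1 in M-phase, a log2 change of 1.58 (limma, adjusted p = 2.13e-13). TTLL12, of the tubulin ligase family, and SVBP, the partner of the detyrosinating vasohibins, rose by 1.02 and 0.98 (limma, adjusted p = 1.38e-05 and 2.22e-06). The falls were at VASH2, a vasohibin, and TTLL7, a glutamylase, named because they were the only 2, with log2 changes of -0.52 and -0.58 (limma, adjusted p = 0.0466 and 0.0177). ATAT1, the tubulin acetyltransferase, had no promoter peak from which to read a change, and the state of its promoter was not tested. Of the 15 genes for microtubule dynamics, 10 rose and 0 fell (limma), beside the same shares of 47.1% and 5.29%. Their median log2 change was 0.64. The unadjusted limma count was 12 rises and 0 falls and that of edgeR 9 and 0, also without a background share. The plus-end protein MAPRE1, the mitotic kinesin KIF18A and the lattice-binding MAP4 had log2 changes of 1.13, 1.10 and 1.06 (limma, adjusted p = 7.96e-08, 2.06e-07 and 1.39e-06), the largest of the list together with MAPRE3, a relative of MAPRE1, which had the same rounded change of 1.06 (limma, adjusted p = 1.69e-05).

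The promoters whose pattern over the 6 libraries was most like the average of the tubulin start sites were those of PPA1, an inorganic pyrophosphatase, CCDC77 with KDM5A at a shared start, and ACTB, the β-actin gene. Pearson's r of log2(scaled count + 8) was 0.9996, 0.9994 and 0.9993 over the 6 libraries, which fall into the 2 phases. Among 11234 promoter peaks of other protein-coding genes 434 reached an r of at least 0.99 and 40.4% reached at least 0.9, so a close match was common.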

How the data were processed

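ATAC-seq of synchronized T98G cells was analysed. The chromatin fraction, input and proteomics samples were not analysed here. According to the study's methods and the submitters' processing notes, the authors trimmed adapters with cutadapt, mapped to hg19 with Bowtie (through QuasR), keeping reads with up to 3 locations, used SAMtools to drop mitochondrial reads and MACS2 in broad mode for peaks of merged replicates. Tool versions, and any shift of read ends for the transposase, are not given in the sources used here. The deposited signal of a peak is its read count, brought by the authors to the size of the smallest library and given to the nearest 0.1. In every library at least 99.8% of values lay within 0.05 of a whole multiple of the value of 1 read, from which reads were recovered. Per the labels, HiSeq and NextSeq runs exist for each M-phase replicate, and how the authors joined them into 1 column is not stated. The authors' table also holds their log2 ratio of the phases and its SD, which were not used. The number of per-sample columns left unused was 0.

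The main test was limma-trend (limma 3.58.1, R 4.3.3) on log2(scaled count + 8) in the 3 G1 and 3 M-phase columns, without covariates, for 73121 of 129347 peaks. Kept peaks had in at least 3 libraries a value equivalent to 10 in a library of median total, and a total of at least 15. Calls have a Benjamini-Hochberg adjusted p under 0.05 over all peaks tested. The count test planned for unscaled counts, edgeR 4.0.16, was used as an alternative on recovered reads. Starts and gene bodies are those of GENCODE release 44 lifted to GRCh37, and a promoter peak overlaps an annotated TSS. Words of 31 bases were counted over both strands of the primary assembly. The tubulin genes, the lists of related genes and the alternatives were chosen with earlier results of these data known. Named peaks are every tubulin TSS peak, the flanking peaks called or highest in their window, up to 3 called peaks with the largest change per related list, and the 3 promoters most alike over libraries with a mean of at least 50. The alternatives were TMM, trended loess and equal totals in peaks as scalings, no filter or at least 10 in every library, a pseudocount of 1, edgeR, the replicate block, each replicate left out, windows of 2 kb and 25 kb, and starts of protein-coding transcripts only. The fit was also run on simulated data in which few peaks changed and the change had no trend with level. That run does not bear on the scaling. Python 3.11.15, numpy 2.4.6, pandas 2.3.3, pysam 0.24.0, numba 0.67.0 and matplotlib 3.10.9 were used.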

Additional observations from a re-analysis of the deposited data

How the results depend on the processing

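Of the 224 alternative values of the tubulin peaks named, 213 kept their side of the threshold, 7 lost the call and 4, all at TUBB6, gained it, and none that was called in the reported setting turned its direction. Uncalled values fell below 0 in places, to -0.15 at the TUBB2B TSS peak, -0.16 at the exonic TUBB2B peak and -0.17 at the DEF8 promoter. The median log2 change of the tubulin TSS peaks was 0.41 with trended loess and 0.75 with equal totals in peaks. That of the flanking peaks was -0.01 with equal totals and 0.09 with no filter, where all 20 were tested. A window of 25 kb gave 5 flanking peaks called higher and 2 lower of 24 tested, in place of 3 and 0 of 12. Of all peaks tested outside promoters, 6.51% were higher and 15% lower. For the 61 promoter peaks of related genes, loess gave 12 higher, 12 lower and a median of 0.14, and equal totals gave 9 lower and a median of 0.25. Over all peaks, 10439 were higher and 9548 lower as deposited, 6342 and 18092 with equal totals, and 5001 lower with at least 10 in every library, where fewer peaks were tested. Leaving out each replicate gave 5374 to 7966 lower peaks in the whole table, the fewest without G1 replicate 3, and 1 to 4 lower among related genes, with 1 without G1 replicate 3, M-phase replicate 1 or M-phase replicate 2. The cause of these shifts was not tested. With the replicate block, 10881 peaks were higher and 10063 lower and 9 of 10 tubulin TSS peaks were called higher, TUBB6 being added. The replicate numbers are only names here, since the deviations of same-numbered libraries correlated at 0.0059, -0.0101 and 0.0284. With 1 read worth 0.781 to 1 scaled counts in G1, the 8 flanking peaks that were not tested rest on few reads.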
